A study of Homo sapiens with 4 samples.

Results

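Genes of glycolysis and of the cellular response to low oxygen were examined in breast cancer cells depleted of SNRNP40, a component of the U5 particle of the spliceosome. The set comprised 35 genes, chosen by name with earlier results of these data known. All transcripts listed under these names were taken, with pyruvate kinase M listed under its older symbol PKM2. All 35 were present among the 23217 gene symbols of the deposited table, and together they had 101 of its 44578 listed transcripts. FPKM (sequenced fragments, scaled for transcript length and for the number of mapped fragments) was summed over the transcripts of each gene, separately for each condition. The cells were LV-M100, a clonal subline of the human triple-negative breast cancer line MDA-MB-231, so every value describes 1 clone. Control cells received the siRNA NC1 in 1 library and the BLOCK-iT Fluorescent Oligo in the other, and depleted cells received siSNRNP40 #1 or siSNRNP40 #2. All were transfected with a cationic lipid reagent, and total RNA was taken 48 h later and freed of ribosomal RNA. The oxygen level of the cultures was not stated in the sources used here.

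The 2 libraries of each condition are pooled into 1 value in the deposited table. No value below therefore has a replicate error, no test between the conditions was made, since one of separate libraries needs a value for each, and the word lower or higher describes the pooled values only. The part of a single siRNA or library in a difference cannot be told apart from that of SNRNP40 depletion. Depth is unknown, because the table holds model estimates and no read counts. SNRNP40 itself had 40.4 FPKM in control cells and 6.12 in depleted cells, a log2 fold change of -2.72. Of 8 genes chosen as marks of this line, 7 had a mean FPKM over both conditions of 1 or more, VIM among them at 750 in control cells, whereas SPARC was near 0 at 0.240. Of 7 markers of luminal or hormone receptor positive breast cells, 3 had a mean of 1 or more, among them XBP1 at 27.7 and GATA3 at 1.32 in control cells. The estrogen receptor gene ESR1 and the progesterone receptor gene PGR, of the same list, were near 0, at 0.0199 and 0.0117. In a bulk sample, fewer cells of a kind and less RNA per cell cannot be told apart.

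Glycolysis splits glucose into pyruvate in the cytosol, and lactate dehydrogenase then turns pyruvate into lactate when it is not passed to the mitochondria. Under low oxygen, cells raise glucose uptake and glycolysis through hypoxia-inducible factor 1 (HIF-1), a pair of the proteins HIF1A and ARNT that binds DNA at a short core, ACGTG, in the regulatory sequence of its target genes. With oxygen present, prolyl hydroxylases of the EGLN family mark HIF1A for destruction through VHL, so its activity is set largely at the protein level. Many cancers keep both programmes high even when oxygen is present.

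The hypoxia and glycolysis genes were mostly lower after SNRNP40 depletion. Of the 33 genes whose FPKM averaged 1 or more, 27 had a lower value after depletion and 6 a higher one. For comparison, 49.5% of all 12334 genes at that level were lower. A log2 fold change of -0.5 or less, a decrease of about 30% or more, was found in 7 of the 33 genes, against a background of 5.06% of all genes. These were VEGFA, ANKRD37, PFKFB4, BNIP3L, SLC2A1, LOX and LDHA. When log2 values were centred on 12 common reference genes, GAPDH among them, 4 of the 7 stayed at that limit, against 3.13% of all genes. SLC2A1 then stood at -0.46, LOX at -0.44 and LDHA at -0.43. That setting was chosen after the values were seen. At the opposite limit of 0.5 or more stood 0 of the 33, where the background was 5.24%. No member passed 1 in size, as 1.47% of all genes did. At a limit of 0.25, which was chosen after the values were seen, 17 were lower and 0 higher, with backgrounds of 16.5% and 17.2%. The median log2 fold change of the 33 genes was -0.26, with quartiles of -0.47 and -0.10, while that of all genes was 0.0034, with quartiles of -0.17 and 0.17.

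The members divide into 2 groups by role. The 17 kept genes of transport, regulation and hypoxia response had a median of -0.37, and 15 of them were lower. The 16 kept glycolytic enzymes had a median of -0.14, and 12 of them were lower. Only LDHA among the enzymes passed -0.5, while 6 of the genes of the other group did. The difference between the groups was not tested. The enzymes as a whole made up 1.14% of all FPKM in control cells and 0.988% in depleted cells, and their summed FPKM went from 5861 to 5107 (log2 fold change -0.20). In the plot of levels by gene, the FPKM of the members runs from 0.144 for CA9 to 1364 for ENO1.

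**Figure D1:**
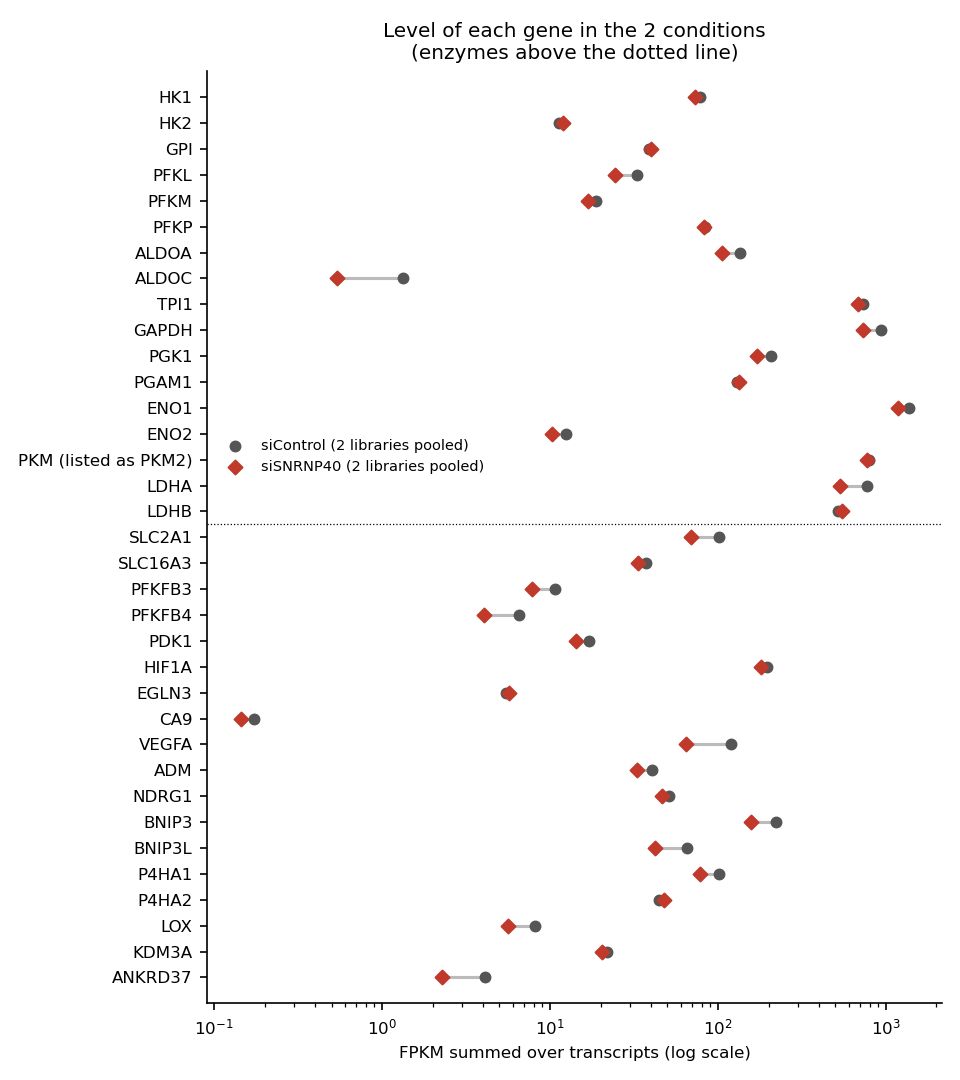
FPKM summed over transcripts (log axis) for the 35 genes with control siRNA (grey circles) and after SNRNP40 depletion (red diamonds), each point being the pooled value of 2 libraries, without error bars. Enzymes stand above the dotted line; ENO1 is the highest gene in both conditions and CA9 the lowest, and the longest grey connecting lines belong to ALDOC, VEGFA and ANKRD37.

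**Figure D2:**
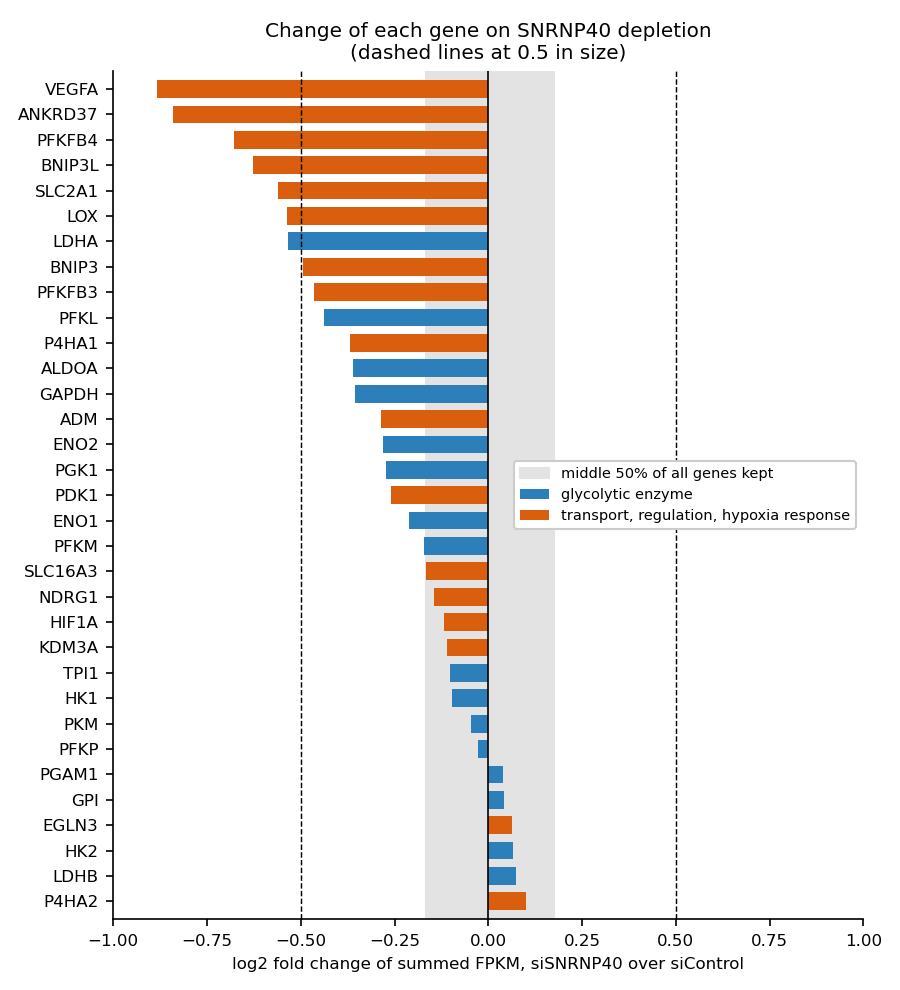
Log2 fold change of summed FPKM, SNRNP40 siRNA over control siRNA, for the 33 genes whose mean FPKM was 1 or more, as 1 pooled value per condition. Bars past the left dashed line mark the 7 genes at -0.5 or less, the grey band holds the middle 50% of all genes (-0.17 to 0.17), and no bar reaches the right dashed line.

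**Figure D3:**
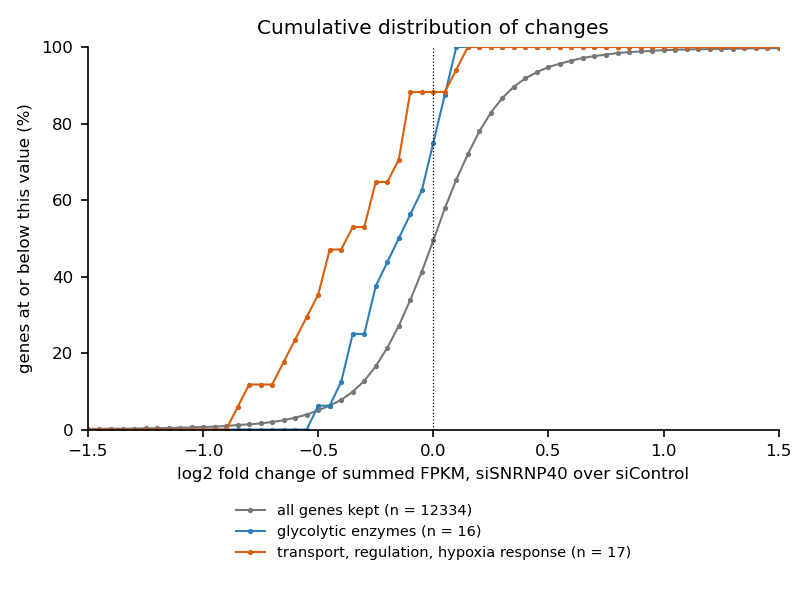
Percent of genes (y axis) at or below each log2 fold change (x axis), for all 12334 genes kept, the 16 glycolytic enzymes and the 17 genes of transport, regulation and hypoxia response. Both coloured curves lie left of the grey curve over most of the range, the orange one farther than the blue. Points stand at steps of 0.05, and the medians are -0.37 (orange), -0.14 (blue) and 0.0034 (grey).

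The promoters of several members hold the letters of the HIF-1 core. Promoter sequences (250 bases before to 50 bases after each annotated transcription start, RefSeq, GRCh38.p14) were found for 32 of the 35 genes, and no entry was used for BNIP3L, NDRG1 and VEGFA. The letters ACGTG, read on either strand and so counting CACGT (a run of CACGTG holds both and counted once), occurred in 25 of the 62 promoters of the members (40.3%) and in 21.4% of all 35116 promoters in the same table. Where a gene had a single listed promoter, they occurred in 9 of 19 members and in 21.3% of 22114 symbols. The second core, GCGTG, was found in 41.9% of the promoters of the members and in 36.5% of all. Among members at a log2 fold change of -0.25 or less, a limit chosen after the values were seen, 11 of 15 had ACGTG in at least 1 promoter. Among the other kept members it was 6 of 15, against 24.9% of all 27305 symbols. The difference between these groups of members was not tested. Members had more listed promoters per gene (62 for 32) than all symbols (35116 for 27305), which gives more chances of a match. Listed promoters of a gene can overlap, so the same site can count more than once among promoters, as in LOX and PFKM. The set includes genes chosen for their part in the hypoxia response, so these shares are no independent evidence of HIF-1 activity. A match is only a run of letters and was not tied to binding in these cells, by HIF-1 or by any other factor. In the windows of LDHA, BNIP3, PFKFB3, ALDOA, GAPDH and HK2 below, the core is part of CACGTG, which reads the same on both strands. The windows below show 12 bases on either side of the core, read along the gene, with the core in capitals. They are shown for the 9 members at -0.25 or less with a match on the gene's strand, at the match nearest to the start. GPI and HK2, the kept members with such a match whose summed FPKM was not lower, follow. PFKP (-0.03) and SLC16A3 (-0.17), lower by less than 0.25, also had such a match and are not shown.
ANKRD37 (chr4:185396686-185396714, plus strand): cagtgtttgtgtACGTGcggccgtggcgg
LOX (chr5:122078285-122078313, minus strand): gtaactttgcaaACGTGccagaaagttta
LDHA (chr11:18394465-18394493, plus strand): agcccgactcacACGTGggttcccgcacg
BNIP3 (chr10:131982040-131982068, minus strand): cgcacgcgccgcACGTGccacacgcaccc
PFKFB3 (chr10:6202813-6202841, plus strand): accctcctccccACGTGgaagggggctgg
ALDOA (chr16:30064374-30064402, plus strand): ggcagggaggccACGTGatccgagtcccc
GAPDH (chr12:6535172-6535200, plus strand): ctctgcggggtcACGTGtcgcagaggagc
ENO2 (chr12:6914450-6914478, plus strand): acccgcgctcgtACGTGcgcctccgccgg
PGK1 (chrX:78104034-78104062, plus strand): gcggcgtgccggACGTGacaaacggaagc
GPI (chr19:34364818-34364846, plus strand): acactgcctgtaACGTGgaaggtgttcga
HK2 (chr2:74835010-74835038, plus strand): tccggcgagagcACGTGgagagaatcgtg
The core lay 143 bases before the start in ANKRD37, 42 in LOX, 86 in LDHA, 133 in BNIP3, 107 in PFKFB3 and 111 in ALDOA. It lay 80 bases before the start in GAPDH, 118 in ENO2, 202 in PGK1, 162 in GPI and 148 in HK2. For PFKFB3, ALDOA and HK2 the start is that of the second promoter listed for the gene, and for the others that of the first. For HK2 and GPI the same letters therefore accompany log2 fold changes of 0.07 and 0.04.

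In what follows, a pair of values for a gene gives its FPKM in control cells and then in depleted cells, with the log2 fold change in parentheses. The regulators of the response were examined first. HIF1A, the oxygen-regulated subunit (chromosome 14 of hg19, 62162119 to 62215807), had 196 FPKM in control cells and 180 in depleted cells, a log2 fold change of -0.12. It was carried by a pair of its 4 listed transcripts, and the larger held 77.4% of the FPKM in control cells and 79.0% in depleted cells. EGLN3, a prolyl hydroxylase that is itself a HIF target, had 5.44 and 5.68 (0.06). KDM3A, a histone H3 lysine demethylase, had 21.9 and 20.3 (-0.11). These 3 genes thus stayed within the middle 50% of all genes.

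Glucose enters and lactate leaves the cell through membrane carriers. SLC2A1, the glucose transporter GLUT1, has a single listed transcript, at 101 FPKM in control cells and 68.8 in depleted cells. Its log2 fold change was -0.56, and 3.68% of all genes were lower still. The listed locus of SLC2A1 (chromosome 1, 43391046 to 43449029) extends past position 43424539, where its annotated canonical transcript ends. SLC16A3, the lactate exporter MCT4, had 37.5 and 33.5 (-0.17), a smaller difference than that of SLC2A1.

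The bifunctional PFKFB enzymes make and remove fructose 2,6-bisphosphate, the strongest activator of phosphofructokinase. PFKFB4 (chromosome 3, 48555117 to 48594227) had 6.51 FPKM in control cells and 4.06 in depleted cells (log2 fold change -0.68). PFKFB3 had 10.8 and 7.79 (-0.47). Their summed FPKM went from 17.3 to 11.9, and PFKFB3 made up 62.3% and 65.7% of it. PDK1, the kinase that blocks entry of pyruvate into the mitochondria by inactivating pyruvate dehydrogenase, had 17.1 and 14.3 (-0.26).

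Secreted products of the hypoxia response included the largest difference among the 33 genes kept. VEGFA, the growth factor that drives blood vessel formation (chromosome 6, 43737946 to 43754223), had 119 FPKM in control cells and 64.5 in depleted cells. The log2 fold change was -0.88, and 0.989% of all genes were lower. ADM, the vasodilator peptide adrenomedullin, had 40.3 and 33.0 (-0.29). LOX, which cross-links collagen and elastin (chromosome 5, 121398890 to 121414055), had 8.14 and 5.62 (-0.54). With a pseudocount of 1 the value of LOX was -0.47, above the limit of -0.5.

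The prolyl 4-hydroxylases of collagen differed from each other in summed FPKM. P4HA1 had 101 and 78.5 (-0.37). P4HA2 had 44.5 and 47.8 (0.10) over 7 listed transcripts. Its most expressed transcript alone had 22.8 and 17.1 (-0.42), so its direction depends on how transcripts are taken. The most expressed transcript of P4HA1 had 71.1 and 58.7 (-0.28), so by that measure both genes were lower. The share of P4HA1 in the FPKM of both genes was 69.5% in control cells and 62.2% in depleted cells.

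BNIP3 and BNIP3L are mitochondrial proteins that direct the removal of mitochondria by autophagy. BNIP3 (chromosome 10) had 222 in control cells and 158 in depleted cells (-0.49), just short of the limit of -0.5 that LDHA at -0.53 passed. BNIP3L had 65.4 and 42.3 (-0.63). Both have a single listed transcript, so no division among transcripts enters these values. The annotation holds 44 pseudogenes named after BNIP3, whose reads may be shared with it. ANKRD37, a HIF target with ankyrin repeats (chromosome 4, 186317840 to 186347139), had 4.08 and 2.28 (-0.84), and 1.22% of all genes were lower. The listed locus of ANKRD37 is far longer than the 3401 bases that its annotated canonical transcript spans. NDRG1, a stress-responsive gene of the same response, had 51.4 and 46.5 (-0.14). CA9, the carbonic anhydrase that is a classical mark of hypoxia, was scarcely expressed, at 0.173 and 0.144, and was left out of the counts.

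In the upper part of glycolysis the differences were small apart from PFKL and aldolase. Hexokinase, which traps glucose in the cell, was mostly HK1, at 77.6 FPKM in control cells and 72.6 in depleted cells (-0.10). HK2 had 11.4 and 11.9 (0.07). GPI, the isomerase that makes fructose 6-phosphate, had 38.9 and 40.1 (0.04). Its most expressed transcript alone had 36.5 and 36.2 (-0.01), so the direction of GPI depends on how transcripts are taken. Among the phosphofructokinase genes, PFKL, the liver-type subunit, had 33.1 and 24.5 (-0.44). PFKM, the muscle type, had 18.9 and 16.8 (-0.17), and PFKP, the platelet type, had 83.8 and 82.2 (-0.03). PFKL made up 24.4% of the FPKM of the 3 genes in control cells and 19.8% in depleted cells, and PFKP 61.7% and 66.6%. Centred on the 12 reference genes, HK1, PFKP and pyruvate kinase M lay above 0, so their direction depends on the scaling.

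ALDOA, the aldolase that splits the sugar into trioses, had 135 and 105 (-0.36). ALDOC, its brain form, had only 1.34 and 0.541, a mean below 1, and was left out of the counts. ALDOC had the lowest log2 fold change among the 35 genes, -1.31. TPI1, which interconverts the trioses, had 734 and 683 (-0.10), and its main transcript carries a low-data flag in the deposited table.

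In the lower part, GAPDH, which oxidizes glyceraldehyde 3-phosphate (chromosome 12, 6643585 to 6647537), had 930 in control cells and 727 in depleted cells (-0.36). GAPDH, TPI1 and ENO2 lie together within 389275 bases of chromosome 12, and their log2 fold changes were -0.36, -0.10 and -0.28. PGK1, the first ATP-forming enzyme, had 207 and 171 (-0.27). PGAM1 had 130 and 134 (0.04). ENO1, the main enolase and the most abundant gene of the set, had 1364 and 1179 (-0.21), whereas the neuronal form ENO2 had 12.4 and 10.2. Pyruvate kinase M had 798 and 773 (-0.05), among the smallest differences of the set. GAPDH has 65 annotated pseudogenes, PGAM1 13, LDHA 6, pyruvate kinase M 5, and ENO1 and TPI1 4 each, so fragments of these genes may be shared with such copies, which was not tested.

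The subunits of lactate dehydrogenase differed from each other. LDHA, the muscle-type subunit (chromosome 11, 18415936 to 18429765), had 766 FPKM in control cells and 530 in depleted cells, a log2 fold change of -0.53. LDHB, the heart-type subunit, had 520 and 547 (0.07). LDHA was thus the higher of the pair with control siRNA and slightly the lower after depletion, the ratio of LDHA to LDHB going from 1.47 to 0.967. In shares, LDHA made up 59.6% of the FPKM of both genes in control cells and 49.2% in depleted cells. Such a ratio within a condition does not depend on the scaling between conditions, but it has no replicate error either.

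The listed transcripts of the members were then compared, because SNRNP40 acts in splicing. The deposited table names transcripts without their exons, so none could be assigned to a known isoform, such as the M1 and M2 forms of pyruvate kinase. Of 62 transcripts of members whose FPKM averaged 1 or more, with values above 0 in both conditions, 8 passed a log2 fold change of 1 in size, 5 of them higher and 3 lower, against a background of 10.5% of all such transcripts. The most abundant of these belonged to VEGFA and LDHA. In LDHA, the main transcript had 752 and 470 (-0.68), while the second had 8.89 and 53.3 (2.59). The share of the second within LDHA was 1.16% in control cells and 10.1% in depleted cells. In VEGFA, the 3 most expressed transcripts had 51.0 and 29.6 (-0.78), 49.9 and 23.3 (-1.10), and 15.2 and 8.23 (-0.88). Another VEGFA transcript had 2.19 and 0.848 (-1.37), so all 4 were lower. A further VEGFA transcript had 0.00218 and 2.43, a value so near 0 with control siRNA that no fold is given. Minor transcripts of PFKP (2.05 and 5.33, log2 fold change 1.38) and LDHB (1.27 and 3.26, 1.36) were higher while the sums of these genes differed by less than 0.1. The remaining transcripts past the limit were a minor one of pyruvate kinase M (0.776 and 1.57) and one of LDHA (1.70 and 0.774).

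In 0 of the 21 members with several listed transcripts did the most expressed transcript differ between the conditions, whereas this was the case in 14.8% of 5282 such genes. Those genes were not matched to the members for FPKM or for the share of the leading transcript. In control cells it held 99.0% in ENO1, 99.5% in GAPDH and 99.8% in LDHB, which leaves little room for a change. In VEGFA the leading and second transcripts were close, at 42.8% and 41.9%. In P4HA2 the leading transcript held 51.3% of the FPKM in control cells and 35.8% in depleted cells, when the second, at 34.1%, came close to it. In pyruvate kinase M the leading transcript held 91.7% and 93.9%. Since cuffdiff divides fragments among overlapping transcripts by a model, these shares depend on that assignment as well as on expression.

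**Figure D4:**
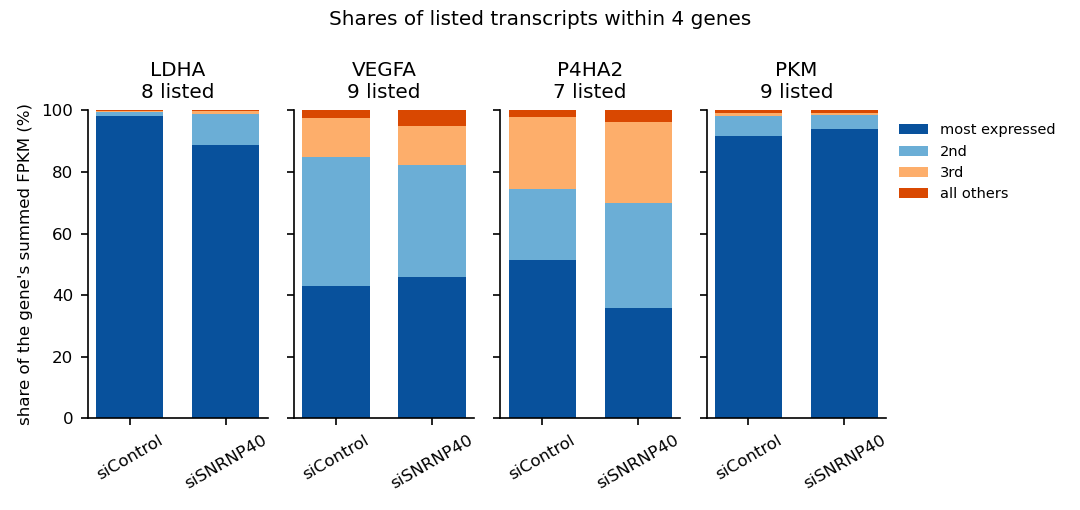
Share of the summed FPKM of a gene (percent, y axis) taken by its most expressed, second and next transcript and by all others, with control siRNA and after SNRNP40 depletion, for LDHA, VEGFA, P4HA2 and pyruvate kinase M. The second LDHA transcript takes 1.16% and 10.1%, the leading P4HA2 transcript 51.3% and 35.8%, and that of pyruvate kinase M 91.7% and 93.9%.

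The members have between 4 and 26 exons in their annotated canonical transcripts, with a median of 11, against 9 over 11413 annotated genes of the table. Across the 33 members, Spearman's rho of the log2 fold change was 0.27 with the number of exons, 0.29 with the span of the gene and 0.13 with the mean FPKM. Over all annotated genes, these were -0.10, -0.15 and -0.08. The points share the same pooled libraries, and these values are a description only.

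Neighbouring pathways were examined with gene lists taken from general knowledge, though chosen with earlier results of these data known. Of 27 further HIF target genes kept, 17 were lower, where 49.5% of all genes were, and their median was -0.13. At -0.5 or less stood 6 of the 27, next to 7 of the 33 members and 5.06% of all genes, and 1 stood at 0.5 or more, as did 5.24% of all genes. The lowest were BHLHE40, a transcriptional repressor, at 9.85 FPKM in control cells and 4.53 in depleted cells (-1.12), MXI1, an antagonist of MYC, with 17.9 and 8.91, and DDIT4, an inhibitor of mTORC1, with 166 and 91.9 (-0.86). The highest was EDN1, the vasoconstrictor endothelin 1, with 8.71 and 16.1 (0.89). The further HIF targets thus ran from -1.12 to 0.89, while the kept members ran from -0.88 to 0.10. In the oxygen-sensing machinery of HIF, 1 of 11 genes passed the limit, ARNT2, with 2.63 and 1.76 (-0.58), and the median was -0.07.

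In 3 routes that branch from glycolysis the medians lay near that of all genes. The median of 7 pentose phosphate genes was -0.04, that of 12 genes of pyruvate entry into mitochondria -0.02 and that of 17 citric acid cycle genes 0.0034. In these 3 lists, PDPR, a regulatory subunit of pyruvate dehydrogenase phosphatase, was the single gene past 0.5 in size (3.18 and 2.14, -0.57). The 10 kept genes of glycogen and gluconeogenesis had a median of -0.15, and 0 of them passed the limit. Among 12 kept genes for other isoforms and carriers of glycolysis (median -0.05), SLC2A12 (6.76 and 3.83, -0.82) and PGAM2 (1.63 and 1.00, -0.70) were lower, and ENO3 (1.06 and 1.52, 0.52) and SLC16A7 (1.46 and 2.07, 0.51) were higher, all at low FPKM. Differences between these lists and the members were not tested.

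**Figure D5:**
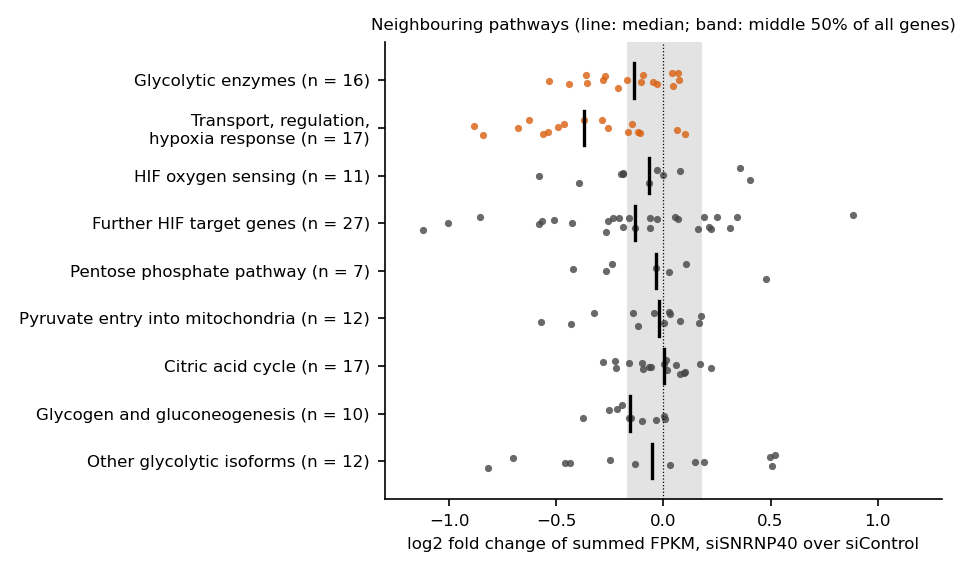
Log2 fold change of summed FPKM (x axis) for each kept gene of the 2 member groups (orange) and of 7 neighbouring lists (grey), with the median of each as a black line and the middle 50% of all genes as a grey band. The medians of the member groups lie at -0.37 and -0.14, and those of the other lists between -0.15 and 0.0034.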

How the data were processed

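RNA-seq of LV-M100 cells was examined, with 2 control libraries and 2 SNRNP40-depleted ones, grouped by the sample titles. Per the methods, adapters were removed with cutadapt 1.2.1, TopHat2 2.0.8 aligned the reads to hg19, transcripts were built by Cufflinks, and Cuffdiff 2.0.2 compared the conditions. The FPKM values deposited are its estimates per transcript and condition, with both libraries of a condition pooled by the authors. The columns of the authors' own comparison (fold change, test statistic, p and q) were not used, and the tests planned for values per library could not be run. FPKM was summed per gene symbol, genes whose FPKM averaged 1 or more, with values above 0, were kept, and log2 ratios were taken without a pseudocount. Every listed member is named; other genes are named past 0.5 in size, up to 3 per direction and list. The members and lists were chosen with earlier results of these data known. Exons came from the GENCODE annotation mapped to GRCh37, which shares coordinates with hg19, and 92.5% of genes kept were matched. Start positions were made 1-based. The single values of some reference genes are not reported here. Python 3.11.15, numpy 2.4.6, pandas 2.3.3 and matplotlib 3.10.9 were used.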

Additional observations from a re-analysis of the deposited data

How the results depend on the processing

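No paired analysis was possible because each condition has 1 pooled column, in which no library can be told apart. Leaving out single replicates and tests with limma were not run either, for want of values per library. The part of depth in any value was not tested, since no counts were given. FPKM minima refer to the mean over both conditions. A log2 value was counted as moved when it changed by at least 0.1, and a count when it changed by more than 1.5 times. Another scaling shifts every member by the same amount, less than 0.1 in each case here, so it could move no single member by that measure. With a pseudocount of 1, 2 of 33 members moved (ANKRD37 to -0.63 and PFKFB4 to -0.57). With the most expressed transcript, 3 of 33 moved (LDHA to -0.68, VEGFA to -0.78 and P4HA2 to -0.42).

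The number of members lower at -0.5 or less, 7, was between 6 and 8 under the other filters, scalings, pseudocount and choice of transcript, while the share of all genes at that limit, 5.06%, ranged from 2.98% with a pseudocount of 1 to 11.0% without an expression filter. The number past 1 in size, 0, was 1 (ALDOC) without a filter and 1 at a minimum FPKM of 0.1. The number of transcripts past 1, 8, was 15 without a filter, 13 at a minimum FPKM of 0.1, 2 at a minimum FPKM of 5 and 4 with a pseudocount of 1. The share of all transcripts past 1 was not computed in these other settings. Of the genes in neighbouring lists, 10 were lower and 3 higher past 0.5. The 3 higher became 5 without a filter, 1 at a minimum FPKM of 5, 5 with upper-quartile scaling, 1 with a pseudocount of 1 and 6 with the most expressed transcript of each gene, and the 10 lower became 6 with a pseudocount of 1. The log2 fold change of SNRNP40, -2.72, was -2.54 with a pseudocount of 1. The median of all members lay between -0.23 and -0.27 in all of these settings.

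Other settings were chosen after the data were seen. At a minimum FPKM of 50, 17 members were left. Of these, 15 were lower, against 50.1% of all genes at that level, and 4 stood at -0.5 or less, against 1.96%. The median of the transport, regulation and hypoxia group was then -0.53, the neighbouring lists had 2 lower and 0 higher past 0.5, and 0 member transcripts passed 1. At a limit of 0.25, 17 members were lower, against 16.5% of all genes. Log2 values were also centred on the median of 12 common reference genes (-0.10). GAPDH of this set and SDHA of the citric acid cycle list were among these 12. With this centring, 24 members remained below 0, where 33.9% of all genes had stood at or below -0.10 before it. At -0.5 or less were 4 members, against 3.13% of all genes, with SLC2A1 at -0.46, LOX at -0.44 and LDHA at -0.43. The median of all members was then -0.16 and that of the enzymes -0.04, and HK1, PFKP and pyruvate kinase M lay above 0. The neighbouring lists had 5 lower and 6 higher past 0.5 in that setting. Relative to GAPDH, SNRNP40 stood at -2.37. For these shifts the cause was not tested.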

Other observations

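GAPDH is a member of this set and is also a common reference for quantitative PCR. It had 930 FPKM in control cells and 727 in depleted cells (-0.36 on the log2 scale), and 9.66% of genes kept had a lower log2 fold change. Against 11 other genes often used as references, a list chosen after the values were seen, only YWHAZ was lower (-0.39). ACTB had -0.24, RPLP0 -0.20, PPIA -0.12, HPRT1 -0.11, GUSB -0.07, SDHA -0.07, TBP 0.09 and B2M 0.45. The FPKM of SNRNP40 left after depletion was 15.1% of control without a reference. It was 19.4% relative to GAPDH, 17.9% relative to ACTB, 14.2% relative to TBP and 11.1% relative to B2M.

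Relative to GAPDH, 12 of the other 32 kept members were lower and 20 were not. A comparison of these genes set against GAPDH would therefore show fewer of them as lower than the comparison of FPKM values does. With 1 pooled value per condition, none of these differences has an error.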
